A study of Mus musculus with 8 samples.

Results

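The 6 genes Dusp1, Dusp3, Dusp4, Dusp5, Dusp6 and Dusp7 encode phosphatases that remove phosphate from mitogen-activated protein (MAP) kinases. They were chosen by gene symbol, 6 of the 20741 genes in the deposited gene table. Dusp4 was picked because its RNA level was already known to vary strongly with the time of day in these libraries, and the other 5 were picked as its relatives. The daily pattern of Dusp4 is therefore given as a description, and the count of members called, which includes it, supports nothing.

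RNA was measured in the suprachiasmatic nucleus (SCN), the paired hypothalamic cell group that acts as the circadian pacemaker of mammals. The mice were of the C57/BL6 strain and had lived in 12 h of light and 12 h of darkness before being moved to constant darkness, which all groups shared. One library was made for every 6 h over 2 days, 8 in all, each from pooled RNA of 3 mice. Circadian time (CT) counts hours of the animal's internal day. The subjective day is sampled by CT4 and CT10, the subjective night by CT16 and CT22, and each time was sampled once in a first cycle (22 to 40 h) and once in a second (46 to 64 h). The labels state no replicates, so the 2 libraries of a circadian time were taken as a group of 2, and every p-value measures spread between pooled libraries and not between mice. The labels used here state no age, and they place the start of collection at CT18 although the first library is titled CT22.

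MAP kinases such as ERK, JNK and p38 are switched on when an upstream kinase phosphorylates a threonine and a tyrosine in their activation loop, and dual-specificity phosphatases (DUSPs) switch them off by removing both phosphates. Several DUSP genes are themselves induced by the kinases they act on, which makes them feedback inhibitors. In the SCN, ERK phosphorylation changes over the day and is triggered by light at night, and it links light input to gene induction.

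Dusp1, Dusp4 and Dusp5 are the inducible, mostly nuclear enzymes of the set. Dusp6 and Dusp7 are cytoplasmic and prefer ERK. Dusp3 is a small atypical enzyme that lacks the kinase-binding domain of the others. The files place the genes on mouse build mm9 as follows. Dusp1 (ENSMUSG00000024190) is at chr17:26642429-26645520 and Dusp3 (ENSMUSG00000003518) at chr11:101832078-101848341. Dusp4 (ENSMUSG00000031530) is at chr8:35870264-35883097 and Dusp5 (ENSMUSG00000034765) at chr19:53603541-53617072. Dusp6 (ENSMUSG00000019960) is at chr10:98725779-98730271 and Dusp7 (ENSMUSG00000053716) at chr9:106270894-106278263.

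Promoter sequence was available for 5 of the 6 genes from RefSeq (build GRCm38.p6), as the 250 bases before the annotated start. Dusp4 had no entry. The 5 promoters were searched on both strands for 6 motifs of signal- or clock-driven transcription. These were the cAMP response element (CRE, TGACGTCA), its core TGACG, the E-box CACGTG bound by the clock activators, the AP-1 site TGANTCA, the D-box TTATGTAA and the CArG box of serum response factor. Each whole CRE holds its core on both strands. The promoters of Dusp1 and Dusp5 held matches and are shown as the only 2 with a match. Capitals mark the matches, and each sequence runs 5′ to 3′ on the strand of the gene. Dusp1 is at chr17:26508473-26508722 on the minus strand and Dusp5 at chr19:53528895-53529144 on the plus strand.
Dusp1: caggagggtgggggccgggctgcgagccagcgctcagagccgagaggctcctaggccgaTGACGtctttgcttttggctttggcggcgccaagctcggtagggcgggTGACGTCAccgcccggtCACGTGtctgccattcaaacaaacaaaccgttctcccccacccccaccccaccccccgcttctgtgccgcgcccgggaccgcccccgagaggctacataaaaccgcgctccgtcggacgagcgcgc
Dusp5: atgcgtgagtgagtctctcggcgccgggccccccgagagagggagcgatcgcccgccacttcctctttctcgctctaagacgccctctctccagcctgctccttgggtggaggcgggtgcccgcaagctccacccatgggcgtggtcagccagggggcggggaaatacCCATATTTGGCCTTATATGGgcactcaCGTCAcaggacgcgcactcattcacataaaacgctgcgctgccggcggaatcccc

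In Dusp1 the capitals are, from left to right, a CRE core, a whole CRE and an E-box. The CRE lay 143 to 136 bases before the start and the E-box 126 to 121 bases before it. In Dusp5 they are a pair of adjoining CArG boxes, from 82 to 63 bases before the start, and a CRE core on the opposite strand. None of the 6 motifs was found in these windows of Dusp3, Dusp6 and Dusp7. Among all 32851 promoters of the same length, 1.55% held a CRE, 17.8% its core, 6.02% the E-box, 6.75% the AP-1 site, 0.819% the D-box and 1.47% a CArG box. A match in letters shows no binding, and no factor was measured.

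Each library held 11123610 to 11131890 sense-strand gene reads, and all 6 genes passed the filter of at least 10 reads in at least 2 libraries. Levels are given as CPM, which are reads divided by effective library size and set on a common scale of 1000000 reads. The tissue label was checked on 12 SCN neuron markers, all of which were detected: their summed level was 664 to 1190 CPM, with Vip at 189 to 375 CPM. Myelin RNA was high too: the 10 oligodendrocyte markers summed to 5017 to 15722 CPM. The dissected pieces thus held other cells than SCN neurons, and of 10 marker lists none had a gene at 0 in every library. In such bulk tissue, fewer cells of a type and less RNA per cell cannot be told apart.

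Set against the joined length of all annotated exons of the gene, Dusp3 had the highest mean level, at 25.6 ± 2.05 CPM per kb (SD over 8 libraries). This length can exceed that of a single transcript. In Dusp1 it takes in introns that lie inside a longer annotated exon, which lowers its value, so its place beside Dusp7 and Dusp6 is not settled. Dusp7 followed at 6.26 ± 0.878 CPM per kb, then Dusp1 at 5.53 ± 1.17, Dusp6 at 5.24 ± 0.788, Dusp4 at 3.43 ± 2.48 and Dusp5 at 0.721 ± 0.172. Dusp7 and Dusp1 differed by less than either SD, and so did Dusp1 and Dusp6. Dusp4 ranged from 0.992 to 8.25 CPM per kb, so its highest library was above every mean except that of Dusp3 and its lowest was above the mean of Dusp5 alone. The coefficient of variation of CPM over the libraries was 72.2% for Dusp4 and 8.00% to 23.8% for the other 5 genes.

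Dusp4 RNA was high in the early subjective day and low in the early subjective night in both cycles. At CT4 it stood at 17.5 CPM in the first cycle and 24.6 in the second. At CT10 the values were 7.82 and 10.9 CPM, at CT16 they were 3.92 and 2.95, and at CT22 they were 8.23 and 5.82. Both CT4 libraries were above the other 6, a pattern that 4.97% of the 15217 tested genes showed, and both CT16 libraries were below the other 6, as in 3.03% of genes. Day and night as wholes overlapped, since the first CT10 library was below the first CT22 library. Because Dusp4 was chosen for this pattern, nothing is read from those shares.

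As group means, Dusp4 had 21.0 ± 4.997 CPM at CT4 (SD, n = 2), 9.34 ± 2.16 at CT10, 7.02 ± 1.71 at CT22 and 3.44 ± 0.688 at CT16. CT10 and CT22 did not differ beyond their spread, while CT4 stood above and CT16 below them. The ratio of CT4 to CT16 was 4.46 in the first cycle and 8.32 in the second. A fitted 24-h cosine gave a log2 peak-to-trough ratio of 2.66 ± 0.30 (SE), or 6.31-fold, with the peak at CT4.59 ± 0.412 h. Split by axis, the fitted level was 2.86-fold higher by day than by night and 0.464-fold at dusk (CT10 and CT16) relative to dawn (CT22 and CT4).

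**Figure D1:**
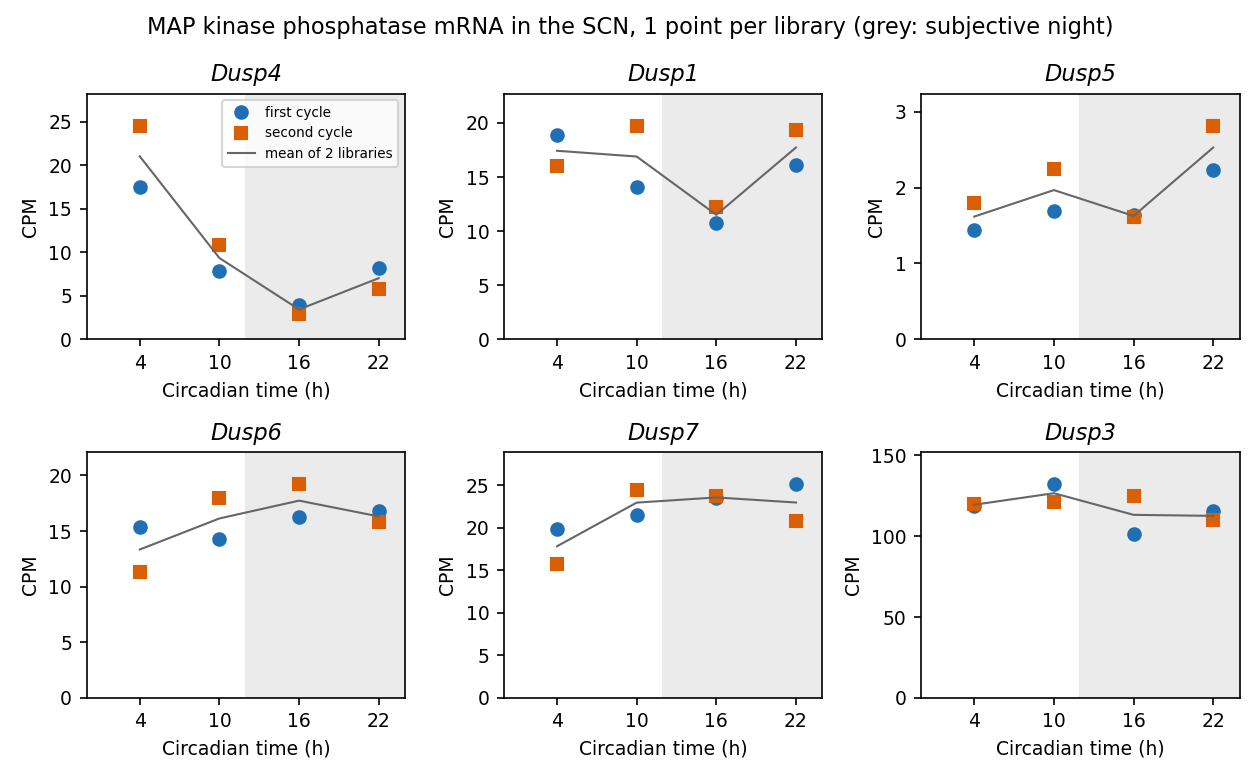
Level of each of the 6 phosphatase genes (vertical axis, CPM, from 0) against circadian time (horizontal axis, h), with 1 point per library, circles for the first cycle, squares for the second and a line through the means of 2 libraries. Dusp4 runs from 24.6 CPM at CT4 to 2.95 at CT16, while Dusp3 stays between 101 and 132 CPM.

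The 12-h term and the comparison of cycles were tested too. Both are part of the residual spread of the 24-h fit. A gene chosen for a strong 24-h pattern in the same libraries therefore tends to have small values in both. For Dusp4 these results are not independent of its choice, and nothing is concluded from them. The 12-h term (CT4 with CT16, set against the other times) was 0.07 ± 0.21 on the log2 scale (edgeR quasi-likelihood test, adjusted p = 0.964). The second cycle differed from the first by 0.07 ± 0.21 on the log2 scale (edgeR, adjusted p = 0.999). Neither term passed the threshold of 0.05 in any of the 6 genes: adjusted p was 0.727 to 0.964 for the 12-h term and 0.999 for the cycle term. No member reached an unadjusted p under 0.05 in either, and DESeq2 also called 0. Over all genes edgeR called 0 for each term, a background of 0%, with 1137 and 543 genes at an unadjusted p under 0.05. DESeq2 called 16 genes for the 12-h term and 0 for the cycle term.

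Dusp1 and Dusp5, the other nuclear enzymes, did not pass the 24-h test. Dusp1, an immediate-early gene that acts on p38, JNK and ERK, stood at 18.8 and 16.02 CPM at CT4 and 14.0 and 19.8 at CT10. Its values were 10.8 and 12.3 CPM at CT16 and 16.1 and 19.4 at CT22. Both CT16 libraries were below the other 6, as for Dusp4 and for 3.03% of tested genes, and the remaining times overlapped. The fitted log2 ratio of Dusp1 was 0.59 ± 0.24 (1.51-fold) with a peak at CT3.54 ± 1.57 h (edgeR, adjusted p = 0.637).

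Dusp5, which acts on ERK in the nucleus, was the least abundant member, with 16 to 31 reads per library. It stood at 1.44 and 1.80 CPM at CT4, 1.69 and 2.25 at CT10, 1.64 and 1.61 at CT16 and 2.24 and 2.82 at CT22. CT22 was the highest time in both cycles, but its first library lay just below the second CT10 library. The fitted log2 ratio was 0.37 ± 0.54 (edgeR, adjusted p = 0.932), an SE larger than the value, so this depth could not show a difference of that size.

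Dusp6 and Dusp7, the cytoplasmic ERK phosphatases, had their fitted peaks in the night, but neither passed the test. Dusp6, a feedback inhibitor of growth-factor signals, stood at 15.3 and 11.3 CPM at CT4 and 14.3 and 18.0 at CT10. It stood at 16.2 and 19.2 CPM at CT16 and 16.8 and 15.8 at CT22. CT4 overlapped CT10 and lay below CT16 and CT22, while CT10, CT16 and CT22 overlapped. Dusp7 stood at 19.9 and 15.7 CPM at CT4, 21.5 and 24.4 at CT10, 23.45 and 23.70 at CT16 and 25.1 and 20.8 at CT22. Both CT4 libraries of Dusp7 were below the other 6, which 6.24% of tested genes also showed.

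The log2 peak-to-trough ratio was 0.41 ± 0.22 for Dusp6 (peak CT16.2 ± 2.04 h, edgeR adjusted p = 0.731) and 0.40 ± 0.19 for Dusp7 (peak CT16.01 ± 1.86 h, adjusted p = 0.709). Across the 8 libraries the pair varied together, with Pearson r = 0.90 and Spearman rho = 0.83, the highest of 15 member pairs. Dusp4 ran against both, with r = -0.71 (rho = -0.55) to Dusp6 and r = -0.68 (rho = -0.40) to Dusp7. With Dusp1 it had r = 0.62 (rho = 0.52). These correlations are descriptions with no p, since all points share libraries and scaling.

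Dusp3, which acts on ERK and JNK, varied least of the 6. It stood at 119 and 120 CPM at CT4, 132 and 121 at CT10, 101 and 125 at CT16 and 115 and 110 at CT22. Its lowest and highest libraries were 101 and 132 CPM. The CT16 libraries spanned those of CT4 and CT22, while CT10, CT4 and CT22 lay in that order without overlap. The log2 ratio was 0.19 ± 0.12, or 1.14-fold (edgeR, adjusted p = 0.788).

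In count, edgeR called 1 of the 6 genes for a 24-h rhythm, Dusp4, against a background of 0.112% of tested genes (17 of 15217). DESeq2 called the same 1 gene of the 6, with 0.698% of all genes. That count was fixed by the choice of Dusp4. None of the other 5 reached an unadjusted p under 0.05, and none passed on a single axis. Their lowest adjusted p by edgeR was 0.765 for day against night, which 0.105% of genes passed, and 0.672 for dusk against dawn, which 0.0197% passed. In none of the 6 did all 4 day libraries lie above all 4 night libraries, as in 1.91% of genes, or below them, as in 2.75%. The fitted ratios of the other 5 were 1.14- to 1.51-fold, compared with 6.31-fold for Dusp4.

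**Figure D2:**
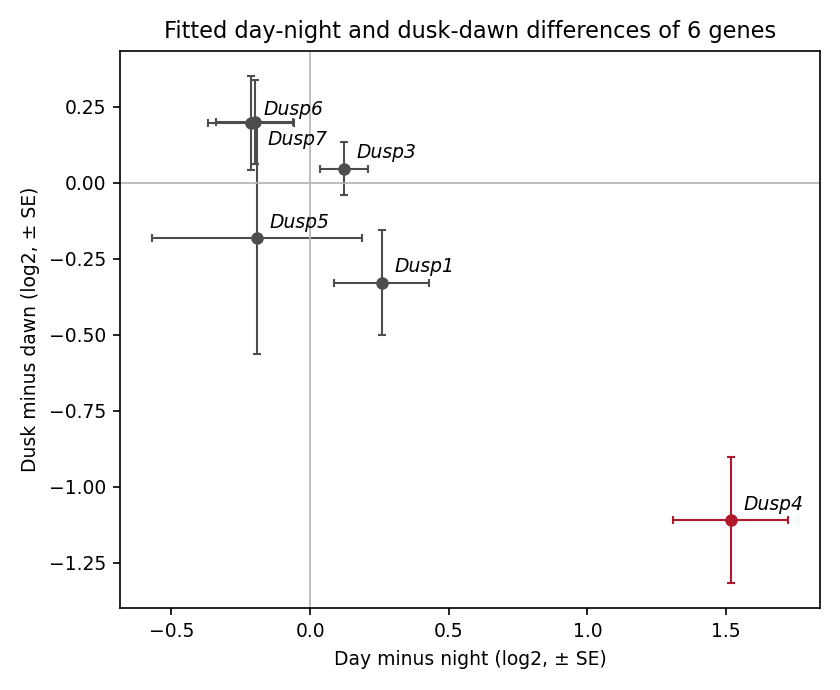
Fitted log2 difference of day minus night (horizontal axis) and of dusk minus dawn (vertical axis) for each of the 6 genes, with bars of 1 SE. Dusp4 lies alone at the lower right, at 1.52 by day and -1.11 at dusk, while the other 5 genes lie between -0.21 and 0.26 by day and between -0.33 and 0.20 at dusk.

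Dusp4's part of the combined phosphatase RNA moved with its level. The reads of all 6 genes together numbered 1724 to 2185 per library. Dusp4 made up 12.95% of them at CT4 in the second cycle (273 of 2108 reads, exact 95% binomial interval 11.5% to 14.5%) and 1.60% at CT16 of that cycle (33 of 2068, 1.10% to 2.23%). In the first cycle the shares were 9.12% at CT4 and 2.49% at CT16. Dusp3 supplied 61.6% to 69.0% of the reads in every library. These intervals cover counting error only.

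The authors' deposited table gives a rhythm test named JTK for each gene. Its q-value was 0.978 for Dusp4 and 1 for Dusp1, Dusp3, Dusp5, Dusp6 and Dusp7, so no q-value of the 6 was below 0.05 in the authors' deposited table. The JTK adjusted p-value in the authors' deposited table was 0.0220 for Dusp4, below 0.05, and at least 0.1246 for the other members. Because Dusp4 was chosen for its pattern, nothing is read from that value. In the authors' deposited table the peak time was 7 h for Dusp4, 4 h for Dusp1 and 19 h for both Dusp6 and Dusp7. The sources used here do not state the hour from which it is counted. It is therefore not circadian time as given, and it cannot be set against the fitted peaks above.

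The parts of the Dusp4 transcript were then compared. The last exon (chr8:35881452-35883097) carried 980 of the exon reads, with 214 and 304 at CT4, 95 and 136 at CT10, 50 and 54 at CT16 and 73 and 54 at CT22. The exon before it (chr8:35880178-35880397) had 25 reads in each CT4 library and 2 to 7 elsewhere. In both exons the CT4 libraries were above the other 6. The first exon (chr8:35870264-35871227) and the second (chr8:35879501-35879646) did not show this order. The first exon had 71 reads in all, 11 and 5 at CT4 and 1 to 22 elsewhere, with the 22 in the first CT22 library. The second had 17 reads in all, 0 and 11 at CT4 and 0 to 4 elsewhere.

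Relative use of the 3 tested Dusp4 exons did not pass on either axis (edgeR diffSpliceDGE, Simes test, adjusted p = 1 for day-night and for dusk-dawn). The exon chr8:35880178-35880397 reached the 10 reads of the filter only at CT4, the time at which Dusp4 was known to be high. Its entry thus followed from the choice of Dusp4, and nothing is concluded from this test for Dusp4. The first exon had a relative log2 day-night difference of -0.62 and the last of 0.05, both with adjusted p = 1. Exon use was tested in 5 members, Dusp5 having too few reads, and 0 passed, also at an unadjusted p under 0.05. Across the genome, 0.0256% of genes passed on the day-night axis and 0.00853% on dusk-dawn. Exons were counted in a separate table, so the sum over exons can exceed the gene count of 909.

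Reads from introns follow RNA that is not yet spliced. The 2 Dusp4 introns counted (chr8:35871228-35879500 and chr8:35880398-35881451) had 20 and 40 reads at CT4, 9 and 2 at CT10, 9 and 0 at CT16 and 3 and 13 at CT22. A count of 0 allows up to 3 reads. Both CT4 libraries were above the other 6, with 60 of 96 reads between them. The fitted log2 ratio was 2.997 ± 1.03 and the peak CT3.38 ± 1.23 h, within 1 SE of the peak of the gene counts.

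Spliced reads were few but placed alike. The junctions of Dusp4 had 10 and 23 reads at CT4 and 0 to 3 in each other library. The best-read junction spanned chr8:35880398-35881451, with 31 reads, of which 10 and 13 fell at CT4. The other, chr8:35879647-35880177, had 0 and 10 reads at CT4 and 0 to 1 in each other library. Antisense reads over Dusp4 numbered 0 to 4 per library.

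**Figure D3:**
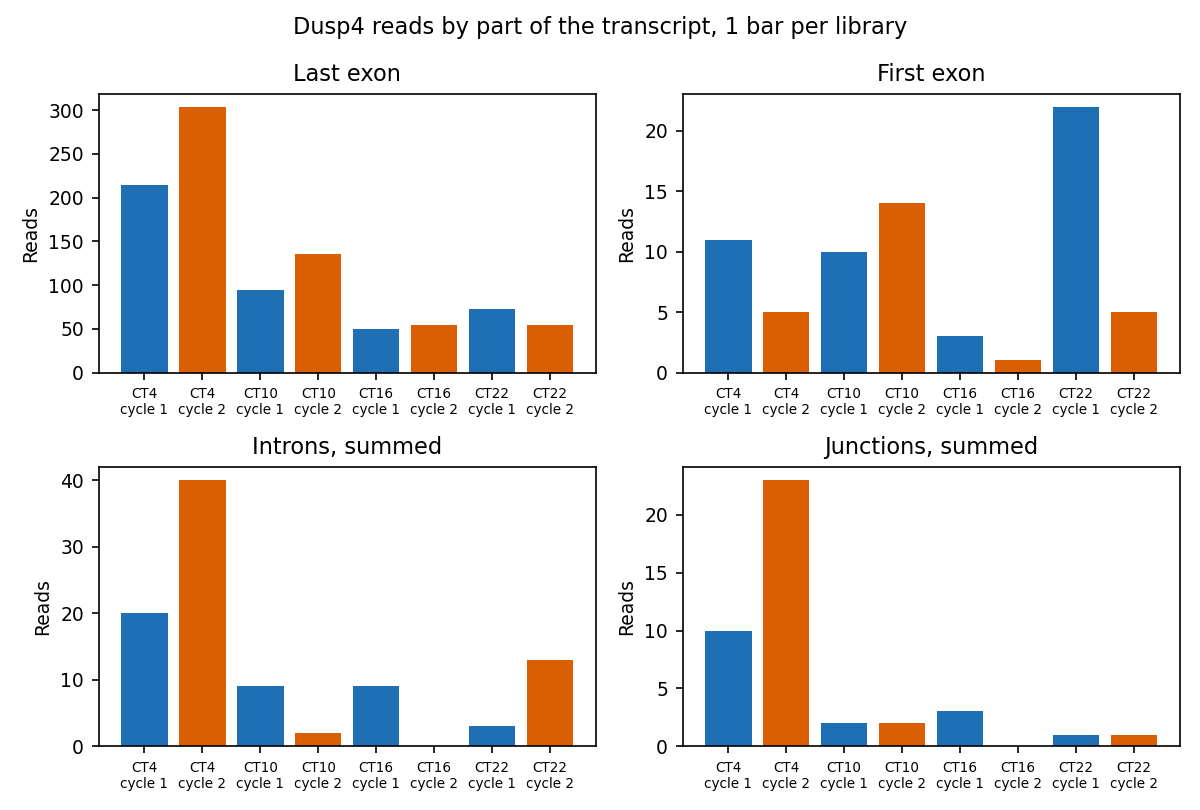
Reads per library (vertical axes, from 0) in the last exon, the first exon, the summed introns and the summed splice junctions of Dusp4, with 1 bar per library in order of circadian time and blue for the first cycle, orange for the second. The CT4 bars are the tallest in the last exon, introns and junctions, and the first exon has its tallest bar, of 22 reads, at CT22.

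Intron reads could be tested in 5 members, Dusp4 included, and edgeR called 0, while 0.258% of all genes passed. Of the other 4, none reached an unadjusted p under 0.05, and the lowest adjusted p was 0.509. Dusp7 had the most, 520 reads, with 60 and 61 at CT4, 43 and 83 at CT10, 82 and 88 at CT16 and 53 and 50 at CT22. Its best-read intron, chr9:106273467-106275969, held 420 of them. The intron values of Dusp7 gave a log2 ratio of 0.58 ± 0.33 and a peak at CT14.2 ± 2.21 h (edgeR, adjusted p = 0.705). The peak of its gene counts lay within 1 SE of this.

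Dusp3 had 167 intron reads, 46 of them in the second CT4 library and 9 to 24 in each other library, with a log2 ratio of 1.36 ± 0.56 (edgeR, adjusted p = 0.509). The region chr11:101834957-101836059, listed as an intron of Dusp3 with 2196 reads, lies inside a longer annotated last exon and was not counted as intronic. The Dusp5 introns held 49 reads and those of Dusp6 56. Of the 3 Dusp1 introns, 2 lie inside a longer annotated exon, and the third had 13 reads and was not tested.

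Of single junctions, 1 each was deep enough to test in Dusp1, Dusp3, Dusp4, Dusp6 and Dusp7, and 0 of these 5 passed or reached an unadjusted p under 0.05 (edgeR, 0.0179% of all junctions passed). That of Dusp4 reached the 10 reads of the filter only at CT4, so its entry followed from the choice of Dusp4. The best-read junction was that of Dusp3 at chr11:101836254-101842930, with 110 reads, followed by Dusp1 at chr17:26643596-26643929 with 73. Dusp6 had 61 reads at chr10:98727616-98728625 and Dusp7 60 at chr9:106273467-106275969. The only junction listed for Dusp5, chr19:53612167-53615405, had 14.

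The genes whose libraries ranked most like Dusp4 were found among 11900 tested genes with a mean of at least 5 CPM, by Pearson correlation of log2 CPM over 8 libraries. They were Pfdn4 (r = 0.98), a prefoldin subunit, Rasl11b (r = 0.97), a Ras-like GTPase, Supv3l1 (r = 0.95), a mitochondrial RNA helicase, Nr1d1 (r = 0.94), the REV-ERB alpha repressor of the clock, and Wnt5a (r = 0.94), a secreted Wnt ligand. Their fitted peaks fell between CT4.26 and CT4.89, which follows from choosing them by likeness to Dusp4 in the same libraries. The size of the swing differed: the log2 ratio was 2.42 ± 0.19 for Rasl11b, 1.08 ± 0.14 for Nr1d1 and 0.88 ± 0.20 for Wnt5a, but 0.38 ± 0.14 for Pfdn4 and 0.41 ± 0.18 for Supv3l1.

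For Dusp1 the closest was 9030407P20Rik (r = 0.92), and for Dusp3 they were BC056474 (r = 0.96) and Rpl23a (r = 0.95). Casp2 (r = 0.93) and Zfp84 (r = 0.89) were closest to Dusp5. Acsf2 (r = 0.96) and Chmp7 (r = 0.95) were closest to Dusp6, and Dexi (r = 0.99) and Ift27 (r = 0.97) to Dusp7. Likeness over 8 libraries is a description and says nothing of shared control.

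The rest of the MAP kinase pathway was read from 9 lists with 93 genes, of which 84 were tested. In the 24-h test edgeR called 0 of them, compared with 0.112% of all tested genes. With so low a share over all genes, a count of 0 does not set these lists apart. Of the 84, 12 had an unadjusted p under 0.05, compared with 1308 of all 15217 tested genes. DESeq2 called 1, Fosl2 (adjusted p = 0.0119), compared with 0.698% of all genes. None had a fitted ratio above that of Dusp4. The nearest was Dusp27, at a log2 ratio of 2.14 ± 1.10 and at most 1.30 CPM as a group mean (edgeR, adjusted p = 0.719). The median log2 ratio of all tested genes was 0.29.

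Other phosphatases showed no call by edgeR, near the 0.112% called over all tested genes. Of 5 further typical MAP kinase phosphatases, 3 were tested. Dusp10, Dusp16 and Dusp8 had log2 ratios of 0.40 ± 0.29, 0.14 ± 0.20 and 0.08 ± 0.15, and the median was 0.14. Dusp2, nuclear like Dusp1 and Dusp4, had 32 reads in all and was not tested. Dusp9, cytoplasmic like Dusp6 and Dusp7, had 43 and was not tested either. Of 13 atypical dual-specificity phosphatases, 12 were tested and 0 called, with a median log2 ratio of 0.33. Dusp11, an RNA phosphatase, had 179 ± 17.2 CPM at CT4 and 227 ± 36.0 at CT16 (SD, n = 2; edgeR, adjusted p = 0.408). Dusp19 and Dusp15 had adjusted p of 0.441 and 0.635 by edgeR. Of the tyrosine phosphatases, Ptpn5 and Ptprr had log2 ratios of 0.19 and 0.18.

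The kinases that these enzymes act on showed no call by edgeR, again near the 0.112% called over all tested genes. In the Ras-ERK cascade 16 of 17 genes were tested, 0 were called and the median log2 ratio was 0.19. Mapk3, which encodes ERK1, had the lowest p of the list, with 121 ± 12.5 CPM at CT10 and 84.0 ± 1.23 at CT4 (SD, n = 2; edgeR, adjusted p = 0.465). Map2k2, an upstream kinase of ERK, had a log2 ratio of 0.49 ± 0.22. In the JNK and p38 cascade 10 of 11 were tested and 0 called, with a median of 0.21. Mapk8, which encodes JNK1, had a log2 ratio of 0.33 ± 0.12 (adjusted p = 0.571 by edgeR), Mapk12 of 0.72 ± 0.30 and Mapk10 of 0.22 ± 0.12.

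Genes downstream of ERK were called in 0 cases by edgeR, near the 0.112% called over all tested genes. Among 12 effector kinases and factors the median log2 ratio was 0.34. Creb1, the factor that binds the CRE, had 68.4 ± 9.71 CPM at CT10 and 99.3 ± 1.51 at CT16 (SD, n = 2; edgeR, adjusted p = 0.349). Rps6ka3 and Elk1 had adjusted p of 0.553 and 0.622. Of 7 tested feedback inhibitors, which like the DUSPs damp the pathway, the lowest p belonged to Errfi1, an inhibitor of the EGF receptor, and to Spred1 and Spred3, of the Spred family, with adjusted p of 0.442 to 0.671 by edgeR.

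Dusp6 is often read out together with Etv5, another ERK-induced gene. Etv5 had 36.8 ± 1.77 CPM at CT4 and 50.1 ± 2.96 at CT16 (SD, n = 2), with a log2 ratio of 0.46 ± 0.13 and a peak at CT16.8 ± 1.10 h (edgeR, adjusted p = 0.440). Its fitted peak lay within 1 SE of those of Dusp6 and Dusp7. Phlda1 and Etv1, in the same list of 7, had log2 ratios of 0.77 ± 0.27 and 0.50 ± 0.19, and the median was 0.50.

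Immediate-early genes, the class to which Dusp1 belongs, had a median log2 ratio of 0.78 over 15 tested genes. The dusk-dawn difference was positive in 3 of the 15, with a median of 0.776-fold, while 7819 of 15217 tested genes were positive. The first CT22 library was the highest of all for Fos, Fosb, Jun, Junb, Jund, Egr1, Egr3, Nr4a1 and Npas4. It was not the highest for the other tested genes of the list. Jund stood at 66.1 CPM there and 11.2 to 21.2 elsewhere. The part of this 1 library in the dusk-dawn difference of the list was not tested. No call was made by edgeR, while 0.112% of all tested genes passed. Of the 15, 3 had an unadjusted p under 0.05, compared with 1308 of 15217 over all genes. Fosl2, which encodes a subunit of AP-1, stood at 25.8 and 31.5 CPM at CT4 and 11.9 to 18.4 elsewhere, with a log2 ratio of 1.16 ± 0.25 (edgeR, adjusted p = 0.214). Both of its CT4 libraries were above the other 6, as for Dusp4 and for 4.97% of tested genes. Btg2 had 25.1 ± 1.38 CPM at CT4 and 14.8 ± 1.68 at CT16 (SD, n = 2), and Nr4a3 had its fitted peak at CT0.699.

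**Figure D4:**
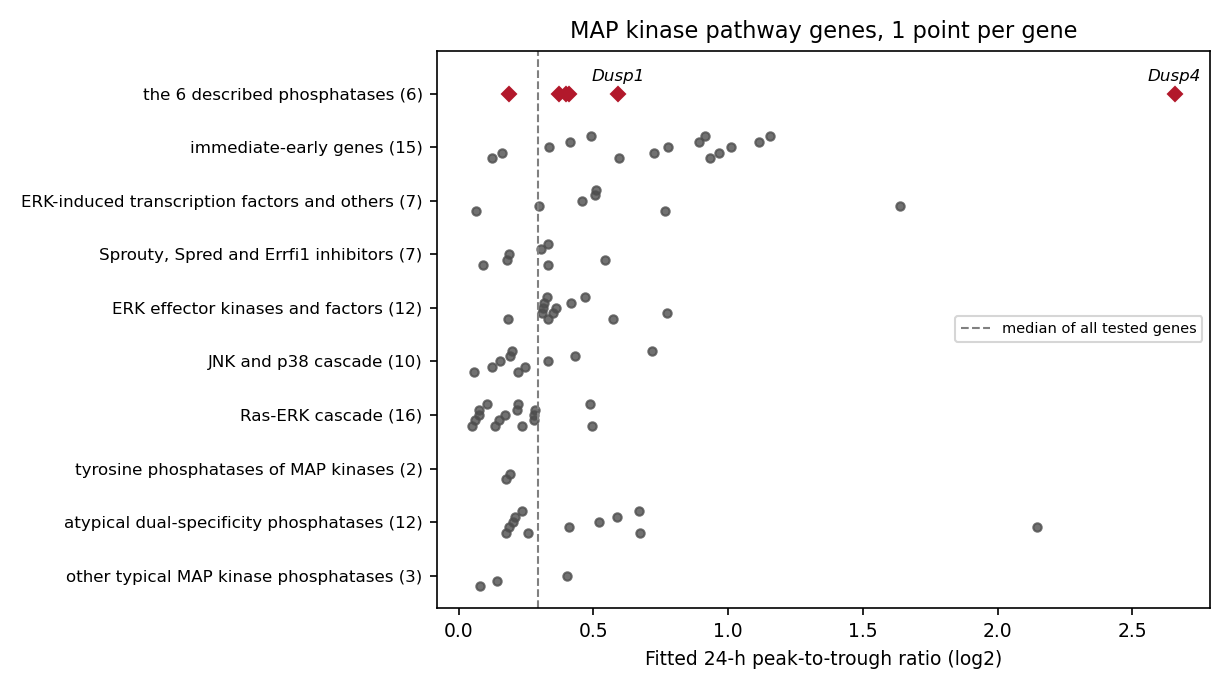
Fitted 24-h peak-to-trough ratio (horizontal axis, log2) of each tested gene of 9 MAP kinase pathway lists and of the 6 phosphatases, with 1 point per gene, the number of genes in brackets and a dashed line at the median of all tested genes, 0.29. Dusp4 lies farthest right at 2.66, and the rest of the 6 phosphatases lie at 0.59 or below.

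Marker sums of other cell types also differed between libraries. Dusp4 was highest at CT4 and lowest at CT16. Of 10 marker lists, only those of oligodendrocyte precursors and microglia had sums that did not overlap between these 2 times. The 10 oligodendrocyte markers summed to 5017 and 8330 CPM at CT4, 12954 to 15120 at CT10, 8071 to 15722 at CT16 and 10238 to 10350 at CT22. With the score of that list as a further term, the log2 ratio of Dusp4 was 2.61 ± 0.35, compared with 2.66 without it. That score itself differed between circadian times, so this fit cannot tell its part from that of time, and nothing is concluded from it. The 5 oligodendrocyte precursor markers summed to 221 and 230 CPM at CT4 and 269 to 308 in the other 6 libraries, and the 8 microglial markers to 201 in both CT4 libraries and 213 to 290 elsewhere. The 5 mural markers summed to 129 and 162 CPM at CT4, 129 to 140 at CT10, 122 to 145 at CT16 and 109 to 137 at CT22. The 5 meningeal markers summed to 91.8 CPM in the first CT4 library and 246 to 511 in the other 7. The part of these 4 lists in the level of Dusp4 was not tested. Without the first CT4 library the log2 ratio of Dusp4 was 2.84 ± 0.36.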

How the data were processed

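Alignment used STAR 2.3.0e and the mm9 build, per the submitters' processing notes. What the authors deposited are whole-number counts of reads for genes, introns, exons and splice junctions, per the file headers. How reads were counted, and with which strand setting, is not given in the sources used here. All column totals were nearly equal within the gene, intron and exon tables, so the authors had equalised depth table by table, and differences between libraries in the ratio of intron to gene reads were lost. The authors' table also holds a JTK q-value, adjusted p-value and peak time per gene, per the file headers.

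Counts were tested with edgeR 4.0.16 in R 4.3.3 (quasi-likelihood F test, TMM scaling, Benjamini-Hochberg over all features, threshold 0.05). A day-night and a dusk-dawn term together form a 24-h cosine, tested with 2 degrees of freedom and 5 residual. SEs of ratio and peak are by the delta method. Intron reads were summed per gene over introns not inside an exon of the gene. Introns and junctions used the library sizes of the genes. The fit was tested on simulated data. DESeq2 1.42.0, other scalings and filters, added terms and leaving out each library were alternatives.

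The 6 genes and all lists were chosen with earlier results of these data known. Named pathway genes are the 3 with the lowest 24-h p of each list. Named alike genes are the 5 closest to Dusp4 and the 2 closest to each other member. Of the genes these rules name, 2 are not reported here. Dusp27, Dusp2, Dusp9 and the immediate-early genes named for the first CT22 library were also singled out after their values were seen. The 6 gene IDs were all found in the table of gene names. Sequences are from RefSeq.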

Additional observations from a re-analysis of the deposited data

How the results depend on the processing

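The log2 peak-to-trough ratio of Dusp4 stayed between 2.41 and 2.84 and its peak between CT4.29 and CT5.06 over 16 alternatives. Leaving out 1 library at a time gave both ends: 2.41 without CT4 replicate 2 and 2.84 without CT4 replicate 1. With exon reads summed per gene it was 2.47. The number of members called was 1 in all 16, Dusp4 having been chosen for this pattern. Libraries of a cycle share no label number, and with the cycle as a replicate block the ratio was 2.65 and the count 1. Calls over all genes were less stable: 17 as described above, 100 by DESeq2, 362 with no low-count filter, 27 with a 12-h term and 7 to 43 without 1 library. Pathway genes called went from 0 to 1 by DESeq2 and to 7 with no low-count filter (Fos, Creb1, Nr4a3, Fosl2, Dusp11, Jun and Jund). Of these, Fos, Jun and Jund had their highest level in the first CT22 library. With no low-count filter the introns of 1 member were called, those of Dusp4, and the cause was not tested. In that setting the introns of 169 genes were called in all, compared with 35 with the filter. Counting also introns inside exons, an alternative chosen after seeing the data, left 0. The 12-h, cycle, junction and exon-use counts of members stayed at 0 in 10 or 11 alternatives each. Dusp5 had 16 to 31 reads per library and Dusp4 42 junction reads in all, which limits what could be seen there. With 2 pooled libraries per time and no replicate mice, the spread between mice is not known.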
